A study of Mus musculus with 9 samples.

Results

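The transcription factors that build and maintain the gut endoderm were followed in the mouse embryonic hindgut as 9 genes, Cdx1, Cdx2, Foxa1, Foxa2, Foxa3, Hnf4a, Klf5, Gata6 and Elf3. Every probe set whose platform annotation named 1 of these symbols and no other gene was taken, which gave 17 probe sets out of 45037 tested, and 9 genes out of 18193. The 9 arrays were of the Affymetrix type MOE430 version 2, with 3 in each group. Ednrb null embryos carried a lacZ allele of Ednrb on both chromosomes and their genotype was given as Ednrb -/-. Ednrb NCC null embryos were described as mutant for Ednrb in NCC cells, with the genotype Ednrb-FLEX(NCC-/-). The abbreviations NCC and FLEX, and the promoter that restricts the mutation, were not spelled out in the labels. Wild type embryos were the common control. The sample labels placed all embryos at embryonic day 14 and the series text at 14.5, the terminal colon was the tissue dissected, and strain and sex were not given. Nothing in the labels tied an array to 1 embryo or to a pool, so the p-values below measure the spread between these samples, which may be technical.

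FOXA proteins are pioneer factors that open chromatin in endoderm, HNF4A directs the differentiation of absorptive epithelium, and CDX1 and CDX2 give the gut its intestinal identity along the axis from stomach to colon. KLF5 and ELF3 act in proliferating and differentiating epithelium, and GATA6 acts in both endoderm and gut mesoderm. The endothelin receptor B, the product of Ednrb, is needed by enteric neural crest cells to reach the end of the gut.

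In Ednrb null hindgut, Cdx1 and Foxa3 were at about 43.1% and 49.7% of the wild type level, and no other factor of the 9 passed the test. In Ednrb NCC null hindgut, none of the 9 brightest probe sets passed against wild type, and 1 second probe set of Klf5 was higher. Set directly against each other, Ednrb null hindgut had less Cdx1, Foxa3, Foxa1 and Hnf4a than Ednrb NCC null hindgut. The calls of Foxa1 and Hnf4a were lost when some single arrays were left out. Because whole tissue was measured, fewer epithelial cells and less RNA per epithelial cell cannot be told apart.

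Levels are given as log2 of the deposited intensity. Within a group the values follow the order of arrays 29, 37 and 41 for Ednrb null, 2, 5 and 6 for Ednrb NCC null, and 1B, 1C and 1D for wild type. Where a gene had several probe sets, the brightest, by its mean over the 9 arrays, was taken as its main value. Probe sets with a mean below the 40th percentile of all those tested, a log2 level of 6.14, were regarded as dim, and 4 of the 17 were dim. A difference was called where limma gave an adjusted p under 0.05 by Benjamini-Hochberg over all 45037 probe sets.

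The targeted gene followed the label in Ednrb null tissue. The brightest Ednrb probe set read 9.23, 9.40 and 8.77 in the Ednrb null arrays, 11.15, 11.32 and 11.04 in the Ednrb NCC null arrays and 11.08, 10.95 and 11.05 in the wild type arrays. All Ednrb null arrays lay below the rest (log2 difference from wild type -1.89, SE 0.15, limma adjusted p = 2.88e-05), whereas the Ednrb NCC null and wild type arrays overlapped. Which part of the gene the alleles alter relative to the probes was not given, so the probe set does not check the Ednrb NCC null label. Of 11 measured neural crest markers, 5 fell in Ednrb null hindgut and 5 in Ednrb NCC null hindgut against wild type, among them Ret, the receptor tyrosine kinase of enteric crest cells. By brightest probe set, 4.79% and 3.9% of all genes were called in these comparisons. All 21 measured pan-epithelial markers were above the dim level, and Epcam, an adhesion protein of epithelia, averaged 12.60 in the Ednrb null arrays, 12.95 in the Ednrb NCC null arrays and 12.62 in the wild type arrays. Of 8 measured anterior endoderm and pancreas factors, 4 were dim: the pancreatic factors Pdx1 and Ptf1a, Mnx1, and the lung and thyroid factor Nkx2-1. Sox2 (8.10), Sox17 (8.09), Hoxa3 (8.41) and Pax9 (6.94) were not dim, by their means over the 9 arrays.

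Across the 17 probe sets, 2 were lower and 0 higher in Ednrb null hindgut than in wild type hindgut, 11.8% of them, where 5.03% of all probe sets were called and 2.52% were called lower. For Ednrb NCC null against wild type, 1 was higher and 0 lower, or 5.88%, where 3.58% of all probe sets were called and 2.06% were called higher. Between Ednrb null and Ednrb NCC null, 4 were lower and 0 higher, or 23.5%, where 4.41% of all probe sets were called and 2.57% were called lower. At an unadjusted p under 0.05, 6, 7 and 10 of the 17 passed in the same order of comparisons. The share of all probe sets at that unadjusted threshold was not computed, so these counts have no background beside them. The median log2 difference of the 9 brightest probe sets was -0.26 in Ednrb null against wild type, beside 0.04 over all 18193 genes. For Ednrb NCC null against wild type it was 0.30, beside 0.02, and between Ednrb null and Ednrb NCC null it was -0.47, beside 0.01. The comparisons share arrays, so they are not independent of each other.

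**Figure D1:**
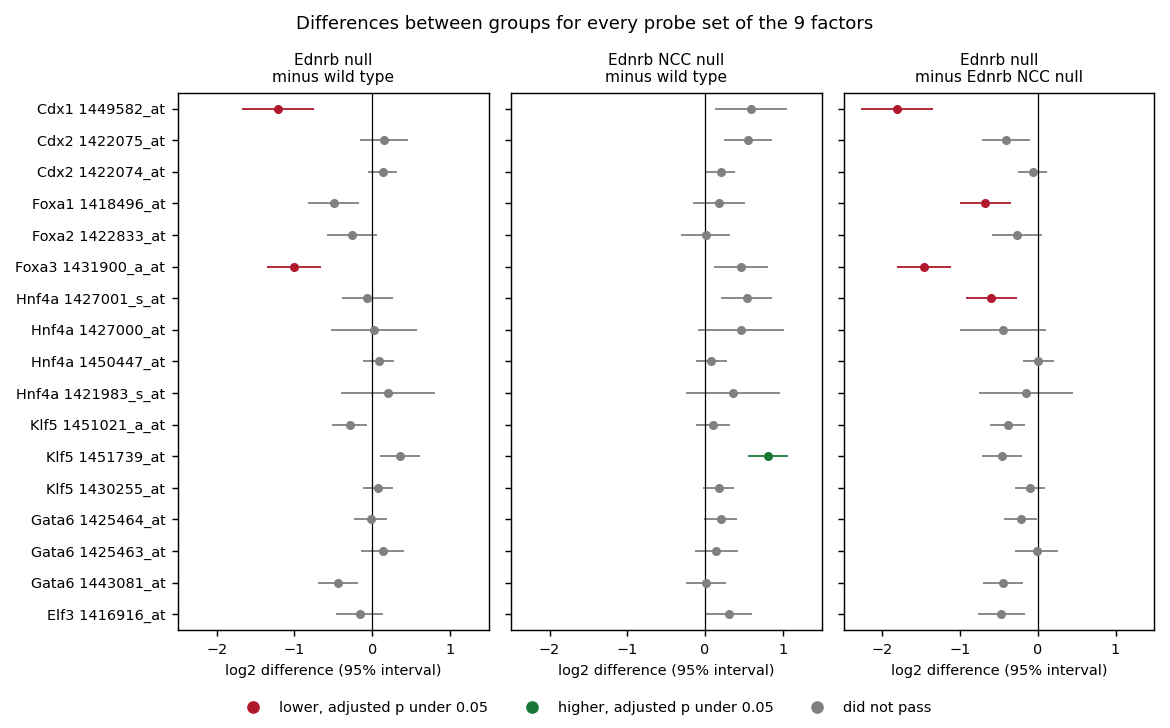
Log2 difference (x axis, with its 95% interval from limma) of each of the 17 probe sets of the 9 factors, for Ednrb null minus wild type, Ednrb NCC null minus wild type and Ednrb null minus Ednrb NCC null. Red marks the 2 and 4 probe sets called lower in the first and last panels, green the Klf5 probe set called higher in the middle panel, and grey those that did not pass.

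Cdx1, a homeobox factor of the intestinal epithelium, had the widest range of the 9 factors. Its only probe set read 7.38, 7.84 and 7.05 in the Ednrb null arrays, 8.98, 9.20 and 9.52 in the Ednrb NCC null arrays and 8.40, 8.55 and 8.97 in the wild type arrays. Every Ednrb null array was below every other array, and the lowest Ednrb NCC null array was barely above the highest wild type array. The difference of Ednrb null from wild type was -1.21 (SE 0.21, 95% interval -1.68 to -0.75, limma adjusted p = 0.0065). From Ednrb NCC null it was -1.81 (SE 0.21, interval -2.27 to -1.34, adjusted p = 0.00106), or 28.6% of the level there. Ednrb NCC null against wild type did not pass (0.59, interval 0.13 to 1.06, adjusted p = 0.167). Both calls of Cdx1 held with each array left out.

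Cdx2, the related factor that sets intestinal against gastric fate, was called in no comparison. Its brighter probe set read 6.67, 6.49 and 6.69 in the Ednrb null arrays, 6.99, 6.74 and 7.35 in the Ednrb NCC null arrays and 6.51, 6.56 and 6.35 in the wild type arrays. The Ednrb null and wild type arrays overlapped, and the Ednrb NCC null arrays lay above both. In Ednrb null against wild type the difference was 0.15 (interval -0.16 to 0.45, limma adjusted p = 0.665), which leaves out a fall as large as that of Cdx1. The difference of Ednrb NCC null from wild type, 0.56 (interval 0.25 to 0.86), narrowly missed the threshold at an adjusted p of 0.0564. It passed in 5 of the alternatives tried at that threshold, among them centring the arrays on their medians (adjusted p = 0.0443) and leaving out Ednrb NCC null 5 (adjusted p = 0.0297). The other probe set of Cdx2 was dim, between 5.66 and 6.02 on all arrays, and was called in no comparison.

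Foxa3 and Foxa1 are shown here with their promoters because both were called lower in Ednrb null than in Ednrb NCC null tissue. The windows run from 250 bases before to 50 bases after the start of the gene, from RefSeq on GRCm38.p6, at chr7:19023490-19023789 (minus strand) for Foxa3 and chr12:57546062-57546361 (minus strand) for Foxa1. Capitals mark matches to the searched motifs, on either strand, namely TTTATG for CDX, TGTTTAC for FOXA, CAAAGTCC for HNF4 and AGATAA for GATA factors. The table of promoters covered 6 of the 9 members, with 9 windows in all.
Foxa3: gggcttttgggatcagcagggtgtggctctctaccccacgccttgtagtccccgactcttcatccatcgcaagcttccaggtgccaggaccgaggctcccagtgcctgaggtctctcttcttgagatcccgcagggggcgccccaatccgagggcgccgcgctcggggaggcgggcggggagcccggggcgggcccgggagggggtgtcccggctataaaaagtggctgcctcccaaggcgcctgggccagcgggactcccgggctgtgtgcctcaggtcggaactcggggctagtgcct
Foxa1: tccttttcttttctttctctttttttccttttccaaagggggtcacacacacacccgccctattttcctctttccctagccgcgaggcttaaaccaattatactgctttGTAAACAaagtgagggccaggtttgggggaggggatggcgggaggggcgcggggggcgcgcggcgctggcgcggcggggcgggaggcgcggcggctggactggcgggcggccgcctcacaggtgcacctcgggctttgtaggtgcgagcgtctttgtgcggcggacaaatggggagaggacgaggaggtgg
The Foxa1 window held the FOXA motif on its reverse strand, a string present in 3.65% of 32851 promoter windows of the same length. The Foxa3 window held none of the 4 strings. The CDX string is in 11.9% of all windows and the HNF4 string in 1.42%. A match is a description of letters and does not show a binding site.

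Foxa3, which acts in gut and liver endoderm, read 7.72, 8.11 and 7.61 in the Ednrb null arrays, 8.98, 9.38 and 9.48 in the Ednrb NCC null arrays and 8.75, 8.73 and 8.98 in the wild type arrays. The Ednrb null arrays were all below the others, and the lowest Ednrb NCC null array met the highest wild type array. Foxa3 fell by 1.01 against wild type (SE 0.16, interval -1.35 to -0.66, limma adjusted p = 0.0034). Against Ednrb NCC null it fell by 1.47 (SE 0.16, interval -1.81 to -1.12, adjusted p = 0.000621), to 36.1% of that level. The value of Ednrb NCC null against wild type was 0.46 (interval 0.11 to 0.80, adjusted p = 0.151). As with Cdx1, the calls of Foxa3 held with any array left out.

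Foxa1, expressed widely in endoderm, read 10.48, 10.59 and 10.18 in the Ednrb null arrays, 11.10, 11.00 and 11.18 in the Ednrb NCC null arrays and 11.21, 10.92 and 10.62 in the wild type arrays. The Ednrb null arrays were the lowest, with Ednrb null 37 close beneath wild type 1D. Foxa1 fell by 0.68 in Ednrb null against Ednrb NCC null (SE 0.15, limma adjusted p = 0.0292), to 62.5% of the level there. That call was lost without Ednrb null 29 or 41, or without Ednrb NCC null 2, 5 or 6, when the adjusted p reached up to 0.110. Against wild type the difference of -0.50 (interval -0.83 to -0.17) had an adjusted p of 0.0946 and passed at 0.05 only without wild type 1D (0.0301) or with array weights (0.0452).

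Foxa2, a pioneer factor of early endoderm and of the notochord, read 9.98, 10.09 and 9.99 in the Ednrb null arrays, 10.09, 10.18 and 10.60 in the Ednrb NCC null arrays and 10.25, 10.53 and 10.08 in the wild type arrays. Its groups lay close together and it passed in no comparison. The interval for Ednrb null against wild type ran from -0.58 to 0.06, so a fall of the size seen in Foxa3 lay outside it. Against Ednrb NCC null it ran from -0.59 to 0.05.

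Hnf4a is a nuclear receptor transcribed from more than a single start, and its windows are shown because it was called between the mutants. They lie at chr2:163506607-163506906 and chr2:163546905-163547204 (plus strand, RefSeq on GRCm38.p6), with capitals and window bounds as above.
Hnf4a upstream window: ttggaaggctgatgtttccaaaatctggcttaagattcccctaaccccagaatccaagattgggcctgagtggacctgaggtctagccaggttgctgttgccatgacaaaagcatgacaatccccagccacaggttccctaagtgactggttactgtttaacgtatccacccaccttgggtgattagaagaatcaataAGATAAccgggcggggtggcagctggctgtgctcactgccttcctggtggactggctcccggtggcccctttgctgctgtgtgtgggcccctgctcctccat
Hnf4a downstream window: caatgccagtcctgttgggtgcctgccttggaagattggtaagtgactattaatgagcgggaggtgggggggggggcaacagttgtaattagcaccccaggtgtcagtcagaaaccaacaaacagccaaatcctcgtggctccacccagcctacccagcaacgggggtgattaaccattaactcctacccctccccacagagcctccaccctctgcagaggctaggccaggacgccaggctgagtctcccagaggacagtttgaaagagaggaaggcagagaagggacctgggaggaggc
The upstream window held the GATA motif, a string found in 11.2% of all windows, and the downstream window held none of the strings searched. Of the other members, Cdx2 had the FOXA string, and the single window of Elf3 had none. Foxa2 had the GATA string only in its window at chr2:148045415-148045714, and its other windows held none of the strings. No window held overlapping matches.

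The brightest Hnf4a probe set read 10.41, 10.35 and 10.13 in the Ednrb null arrays, 10.78, 10.74 and 11.16 in the Ednrb NCC null arrays and 10.10, 10.58 and 10.41 in the wild type arrays. Ednrb null and wild type arrays overlapped, and the Ednrb NCC null arrays stood above both. Hnf4a fell by 0.60 in Ednrb null against Ednrb NCC null (SE 0.15, limma adjusted p = 0.0464). The call was fragile: it was lost without any 1 of Ednrb null 29, 37 or 41, Ednrb NCC null 2, 5 or 6, or wild type 1D (adjusted p up to 0.165), and the mean of its 4 probe sets gave -0.30 at an adjusted p of 0.280. Against wild type, Ednrb null differed by -0.06 (interval -0.39 to 0.26) and Ednrb NCC null by 0.53 (interval 0.21 to 0.86, adjusted p = 0.0777). The 3 further probe sets, 1 of them dim, were called in no comparison.

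Klf5, a zinc finger factor of proliferating crypt and embryonic epithelium, had 3 probe sets, and they disagreed. The brightest, 1451021_a_at, read 11.94, 11.98 and 11.72 in the Ednrb null arrays, 12.21, 12.18 and 12.41 in the Ednrb NCC null arrays and 12.12, 12.23 and 12.16 in the wild type arrays. There the Ednrb null arrays were the lowest and the other groups overlapped. The second, 1451739_at, read 9.78, 9.87 and 9.50 in the Ednrb null arrays, 10.07, 10.22 and 10.23 in the Ednrb NCC null arrays and 9.54, 9.26 and 9.28 in the wild type arrays. Here wild type was the low group, with Ednrb null between and slightly overlapping it.

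Only the second Klf5 probe set was called, at 0.81 in Ednrb NCC null against wild type (SE 0.12, interval 0.56 to 1.07, limma adjusted p = 0.00373). That is 1.76-fold higher, and it held with each array left out. The brightest gave 0.10 in the same comparison (interval -0.12 to 0.32), so their intervals do not meet. Against wild type, Ednrb null gave -0.29 by the brightest (adjusted p = 0.144) and 0.36 by the second (adjusted p = 0.128), of opposite sign. Between Ednrb null and Ednrb NCC null they ran the same way, at -0.39 and -0.46 (adjusted p = 0.0542 and 0.0543), and the brightest passed under 6 of the alternatives at the same threshold (adjusted p from 0.0319 to 0.0392). Where either lies in the transcript was not given, and the third probe set was dim and never called.

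Gata6 and Elf3 passed in no comparison. The brightest Gata6 probe set read 9.51, 9.37 and 9.40 in the Ednrb null arrays, 9.54, 9.66 and 9.75 in the Ednrb NCC null arrays and 9.31, 9.45 and 9.58 in the wild type arrays, with the narrowest range of the 9 factors. Its interval for Ednrb null against wild type was -0.23 to 0.19. The second Gata6 probe set was called nowhere. The dim one, 1443081_at, stood apart from both: it read 5.59, 5.48 and 5.39 in the Ednrb null arrays, 5.76, 6.20 and 5.85 in the Ednrb NCC null arrays and 5.93, 5.93 and 5.91 in the wild type arrays, and missed the threshold against wild type by little (-0.44, limma adjusted p = 0.0563). Elf3, an ETS factor of differentiating epithelium, read 10.02, 10.35 and 9.94 in the Ednrb null arrays, 10.39, 10.57 and 10.74 in the Ednrb NCC null arrays and 10.35, 10.06 and 10.38 in the wild type arrays. All Ednrb null arrays of Elf3 were below those of Ednrb NCC null (-0.47, interval -0.77 to -0.17, adjusted p = 0.0889), and they overlapped wild type. Without Ednrb null 37 this difference of Elf3 passed (adjusted p = 0.0454).

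**Figure D2:**
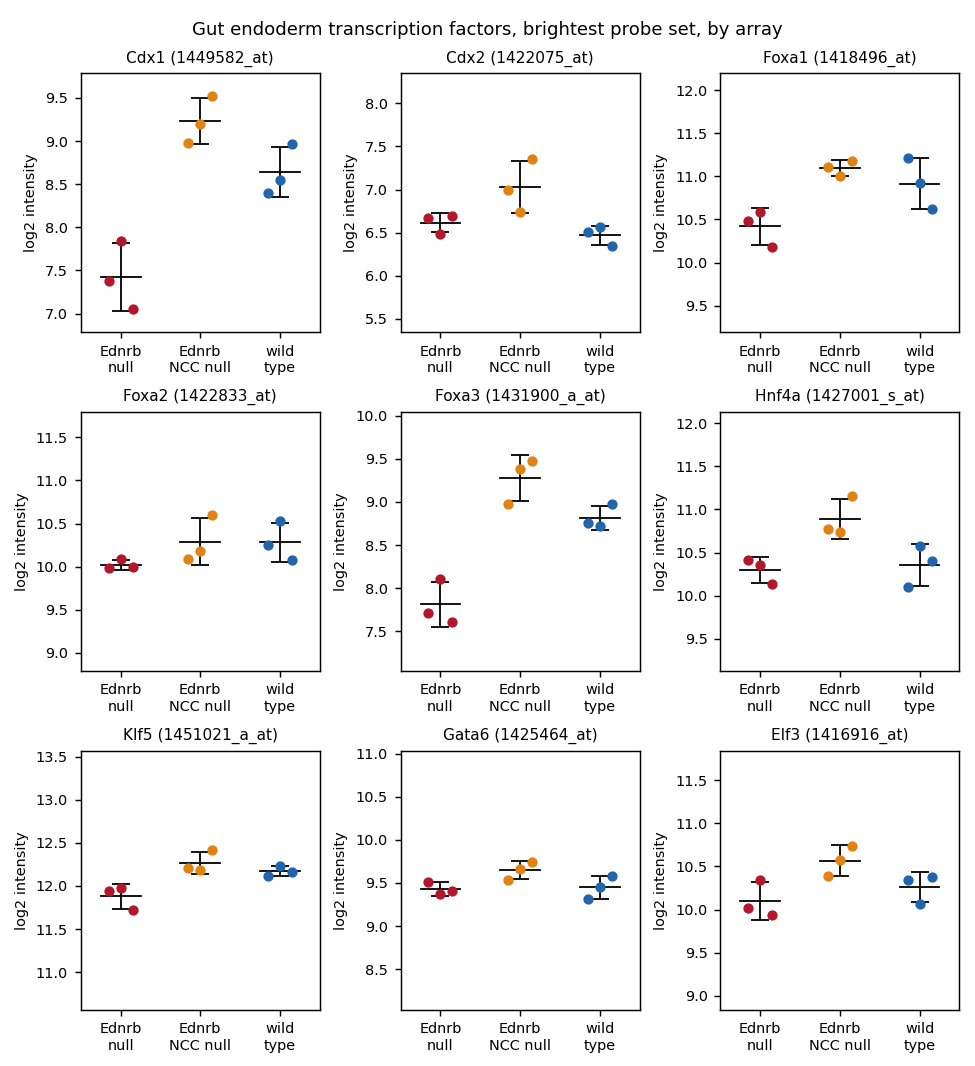
Log2 intensity (y axis, the same span of log2 units in every panel) of the brightest probe set of each of the 9 factors on each array, with Ednrb null on the left, Ednrb NCC null in the middle and wild type on the right. Points are arrays, the long bar is the mean and the whiskers the SD (n = 3). Cdx1 and Foxa3 show the Ednrb null arrays apart from both other groups, and Cdx2 and Hnf4a show the Ednrb NCC null arrays on top.

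The order of group means was Ednrb NCC null above wild type above Ednrb null for 8 of the 9 factors, the exception being Cdx2, for which wild type was lowest. The highest array was Ednrb NCC null 6 for 8 of them, with wild type 1B highest for Foxa1. Ednrb null 41 was the lowest array for 5 factors, Cdx1, Foxa1, Foxa3, Klf5 and Elf3. A shared rank of arrays thus ran through most members, while the span from lowest to highest array differed, from 0.44 for Gata6 to 2.46 for Cdx1. This rank was not particular to the factors. The mean log2 level of the pan-epithelial markers had the same order of groups. It was likewise lowest in Ednrb null 41 (10.14) and highest in Ednrb NCC null 6 (10.85).

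Pan-epithelial markers had median log2 differences of -0.18 for Ednrb null and 0.28 for Ednrb NCC null, each against wild type, and -0.53 for the first mutant against the second. Of the 21 measured, 0 were called in Ednrb null against wild type by limma (8 at an unadjusted p under 0.05), 2 (Krt8 and Ap1m2) were higher in Ednrb NCC null than in wild type, and 11 were lower in Ednrb null than in Ednrb NCC null. Those counts stand beside 4.79%, 3.9% and 5.29% of all genes called by brightest probe set. With single arrays left out, the count of 2 was 0 without Ednrb null 29, Ednrb NCC null 5 or 6, or wild type 1B or 1C, 4 without Ednrb null 41, and 1 without Ednrb NCC null 2 or wild type 1D. The count of 11 was 7 without Ednrb NCC null 2 or wild type 1B, 4 without Ednrb null 29 or Ednrb NCC null 5, 3 without Ednrb null 41 and 2 without Ednrb NCC null 6. Their summed intensity was 38627 to 49939 in the Ednrb null arrays, 56225 to 64982 in the Ednrb NCC null arrays and 46782 to 49299 in the wild type arrays. Their mean log2 level was 10.30 ± 0.18, 10.73 ± 0.11 and 10.45 ± 0.06 (SD, n = 3 each) in the same groups, so Ednrb null overlapped wild type and Ednrb NCC null stood above both.

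Each factor was therefore also expressed per array as its log2 level minus that marker mean, a description in which only differences between groups carry meaning. Cdx1 was at -2.88 ± 0.22 in the Ednrb null arrays, -1.49 ± 0.16 in the Ednrb NCC null arrays and -1.81 ± 0.24 in the wild type arrays (SD, n = 3 each). For Foxa3 the values were -2.49 ± 0.10, -1.45 ± 0.18 and -1.63 ± 0.08. On this scale too, every Ednrb null array of Cdx1 and Foxa3 was below every array of the other groups. Elf3 was at -0.20 ± 0.06, -0.16 ± 0.08 and -0.19 ± 0.13, and its groups overlapped. Hnf4a was at -0.01 ± 0.13, 0.17 ± 0.13 and -0.09 ± 0.26, and Foxa1 at 0.12 ± 0.08, 0.37 ± 0.09 and 0.46 ± 0.34, both with wild type arrays overlapping the other groups.

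With the marker mean as a covariate in the limma model, Ednrb null against wild type gave -0.85 for Cdx1 (adjusted p = 0.00409) and -0.76 for Foxa3 (adjusted p = 0.00601). Between Ednrb null and Ednrb NCC null, the covariate left -0.79 for Cdx1 (adjusted p = 0.437), -0.78 for Foxa3 (0.394), -0.42 for Foxa1 (0.961) and -0.24 for Hnf4a (0.999), and none was called. Against wild type, the second Klf5 probe set kept 0.60 in Ednrb NCC null without passing (adjusted p = 0.243). That covariate runs close to the division between the mutants: it left 52 of 45037 probe sets called between them and 136 in Ednrb NCC null against wild type, but 1389 in Ednrb null against wild type.

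**Figure D3:**
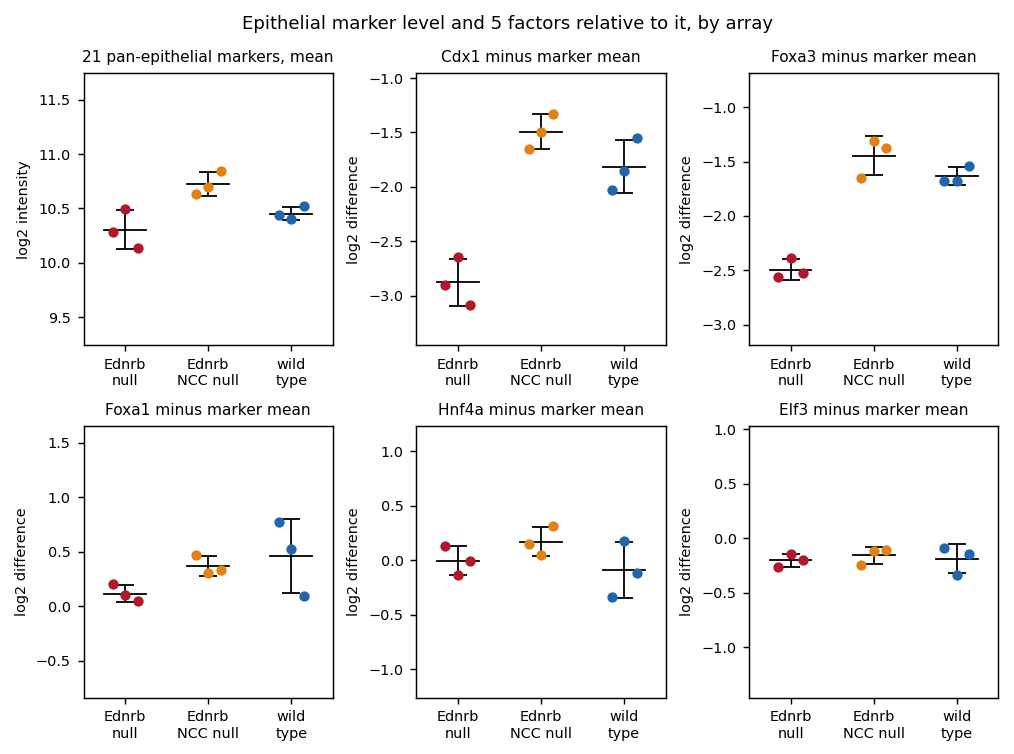
The mean log2 intensity of 21 pan-epithelial markers (first panel) and, in the other panels, the log2 level of Cdx1, Foxa3, Foxa1, Hnf4a and Elf3 minus that mean, on each array, with mean and SD (n = 3). Groups run from Ednrb null through Ednrb NCC null to wild type. Cdx1 and Foxa3 stay lower in Ednrb null after the subtraction, at -2.88 and -2.49 on average, and Elf3 does not separate.

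A ratio used to gauge RNA degradation, which rises as 5 prime signal is lost, was lower in the Ednrb null arrays. The log2 ratio of the 3 prime over the 5 prime Actb control probe sets was 0.87 ± 0.06 in the Ednrb null arrays, 1.21 ± 0.18 in the Ednrb NCC null arrays and 1.18 ± 0.13 in the wild type arrays (SD, n = 3 each). The same ratio for Gapdh overlapped between all groups, at 0.118 ± 0.030, 0.235 ± 0.102 and 0.191 ± 0.069 in the same order. With the Actb ratio as a covariate, 539 of 45037 probe sets were called in Ednrb null against wild type, where 2265 were called without it. Between the mutants 283 were called, against 1984 without it. In that fit, Cdx1 and Foxa3 were still called in Ednrb null against wild type (-1.58, adjusted p = 0.0399, and -1.34, adjusted p = 0.0153) and against Ednrb NCC null (-2.21 and -1.83, adjusted p = 0.0214 and 0.00845). Foxa1 and Hnf4a were at -0.52 and -0.80 between the mutants and were not called (adjusted p = 0.498 and 0.210). Of the 21 pan-epithelial markers, 0 were called between the mutants with this covariate, with a median difference of -0.59.

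Markers of other tissues differed as well, and their part in the results was not tested. Of 6 measured liver markers, 4 were dim (Fga, Fgb, Ahsg and Apoh), Alb was lower in Ednrb null than in Ednrb NCC null, and the summed intensity was 1282 to 2453 in the Ednrb null arrays, 3451 to 3977 in the Ednrb NCC null arrays and 1941 to 3180 in the wild type arrays. Foxa3 and Hnf4a are also expressed in liver. For smooth muscle, 2 of 10 markers (Tagln and Cnn1) were lower in Ednrb null than in Ednrb NCC null, with sums of 42234 to 52953 and 58566 to 68136, and 1 (Cnn1) was lower in Ednrb null than in the wild type, at 50177 to 55188. Of 5 measured red blood cell markers, 2 (Hba-x and Hbb-bh1) were higher in Ednrb null than in either other group. Against wild type they differed by 0.79 and 2.15, whereas Hbb-y (0.23), Hba-a1 (0.10, dim) and Alas2 (0.03) were not called. The list also had 1 gene called higher for Ednrb NCC null against wild type. Group means of Hbb-bh1 were 8.18 for wild type, 9.21 for Ednrb NCC null and 10.34 for Ednrb null. Sums over the 5 markers were 17590 to 24329 for wild type, 20754 to 22778 for Ednrb NCC null and 26277 to 28665 for Ednrb null. Of 8 macrophage markers, 2 (Pf4 and Mrc1) were higher in Ednrb NCC null than in wild type, and 2 (Pf4 and C1qb) were lower in Ednrb null than in Ednrb NCC null, where the list median was -0.45. Their sums were 2545 to 3102 in Ednrb null, 3693 to 3981 in Ednrb NCC null and 2393 to 3727 in wild type. Of 12 gut mesenchyme markers, 1 (Foxf2) was lower in Ednrb NCC null than in both other groups, and 0 of 9 urogenital and squamous markers were called in any comparison (0, 1 and 0 at an unadjusted p under 0.05).

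Single wild type arrays stood apart in some of these lists. Of 8 mesothelial markers, 1 (Msln) was higher in Ednrb NCC null than in wild type, and the list medians against wild type were 0.62 for Ednrb null and 0.94 for Ednrb NCC null. Upk3b, a uroplakin, read 6.04 in wild type 1B, against 9.76 and 9.30 in 1C and 1D, and Bnc1 and Muc16 were likewise lowest in 1B, at 6.71 and 5.03. Wild type 1B was also the lowest array for Hnf4a and Gata6. In wild type 1C the squamous keratin Krt5 read 7.76, against 10.68 and 10.81 in 1B and 1D, and Krt14 read 6.81, against 9.64 and 10.47. The calls of Cdx1 and Foxa3 and that of the second Klf5 probe set held without either array.

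Other transcription factors of the gut epithelium were compared as a list of 27 measured genes, 10 of them dim. Its counts stand beside 4.79%, 3.9% and 5.29% of all genes called in the 3 comparisons. In Ednrb null against wild type, 0 were called by limma (6 at an unadjusted p under 0.05), and the smallest p belonged to Grhl2, a regulator of epithelial junctions (-0.32, limma adjusted p = 0.071), and Klf4, a factor of differentiating surface and goblet cells (-0.43, adjusted p = 0.113). Ednrb NCC null had 1 above wild type, Tfcp2l1 (0.73), which did not pass without wild type 1B. Between the mutants, 3 were lower in Ednrb null, Klf4 (-0.95), the homeobox factor Isx (-0.83) and Tfcp2l1 (-0.73). Isx was also on the list of CDX targets. The count of 3 was 1 without Ednrb null 29 or 41, and 0 with either the Actb or the pan-epithelial covariate. The list medians were 0.00, 0.02 and -0.07, beside 0.04, 0.02 and 0.01 over all genes.

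Factors of the secretory lineages, which make goblet and enteroendocrine cells, were counted beside 4.79%, 3.9% and 5.29% of all genes called. Of 11 measured, 4 dim, 4 were lower in Ednrb null hindgut than in wild type: Insm1 (-2.01), Neurog3 (-1.21), Gfi1 (-1.10) and Creb3l1 (-0.68). Insm1 and Gfi1 were dim, and Insm1 is also used in neurons. That count was 1 without Ednrb null 29 or wild type 1B, 2 without Ednrb null 41 or wild type 1D, and 6 without wild type 1C. Ednrb NCC null had 1 below wild type (Insm1, -1.44). Between Ednrb null and Ednrb NCC null, 6 were lower, among them Gfi1 (-1.65), Creb3l1 (-1.11), Spdef (-1.49) and Atoh1 (-1.52), the master regulator of secretory fate. List medians were -0.68, 0.37 and -0.99. With the Actb covariate the counts of 4 and 6 were each 1, with medians of -0.87 and -1.15, and with the pan-epithelial covariate they were 1 and 0, with medians of -0.46 and -0.42. Of 8 anterior endoderm and pancreas factors, 2 were lower in Ednrb null hindgut than in wild type, Mnx1 (-0.59, dim) and Hoxa3 (-0.35), and 0 were called in the other comparisons (3 and 1 at an unadjusted p under 0.05).

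Genes known as targets of CDX factors were counted beside 4.79%, 3.9% and 5.29% of all genes called in the 3 comparisons. Of 12 measured, 3 dim (Lct, Car1 and Cldn2), 0 were called by limma in Ednrb null against wild type. At an unadjusted p under 0.05, a threshold without a background here, 5 passed. Ednrb NCC null had 5 above wild type, including Gucy2c, the receptor for guanylin (1.43), Vil1, an actin bundler of microvilli (0.99), Slc5a8, a monocarboxylate transporter (0.90), and Lgals4, a lectin of enterocytes (0.69). Gucy2c read 6.81, 6.78 and 6.30 in the Ednrb null arrays, 7.54, 7.98 and 7.99 in the Ednrb NCC null arrays and 6.12, 6.27 and 6.81 in the wild type arrays, so Ednrb null overlapped wild type and Ednrb NCC null stood above. Between Ednrb null and Ednrb NCC null, 7 of the 12 were lower, led in p by Guca2a, which encodes guanylin (-1.93), Slc5a8 (-1.35), Cdh17, an intestinal cadherin (-1.31), and Gucy2c (-1.21). The medians were -0.19, 0.66 and -0.73. The count of 5 was 2 without Ednrb null 29 and 1 without Ednrb NCC null 5 or 6, or wild type 1B or 1C, and the count of 7 stayed at 5 or more with any array left out. With the Actb covariate the counts of 5 and 7 were 7 and 3, with medians of 0.70 and -0.98, and with the pan-epithelial covariate both were 0, with medians of 0.33 and -0.28.

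Of 15 measured genes known as targets of HNF4A or FOXA factors, 9 were dim, including Apob, Fabp1 and Pck1. Their calls stand beside the same 4.79%, 3.9% and 5.29% of all genes. Apoa1, the main protein of high-density lipoprotein, was higher than in wild type in both mutants, by 1.08 in Ednrb null tissue and 1.29 in Ednrb NCC null tissue. The first call was lost with the Actb covariate and the second with the pan-epithelial covariate. It read 7.78, 7.59 and 7.39 in the Ednrb null arrays, 7.79, 7.65 and 7.94 in the Ednrb NCC null arrays and 6.24, 6.56 and 6.72 in the wild type arrays, where all wild type arrays were the lowest. Between the mutants, 4 were lower in Ednrb null: Agr2, a disulfide isomerase needed for mucin (-3.47), Tff3, the goblet cell trefoil peptide (-3.28), Ttr (-1.28) and Cldn7 (-0.85), the last also counted among the pan-epithelial markers. That count was 2 without Ednrb null 41 or Ednrb NCC null 5 or 6, and 1 with the Actb covariate. With the pan-epithelial mean as a covariate, 0 genes of the target lists were called between the mutants.

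**Figure D4:**
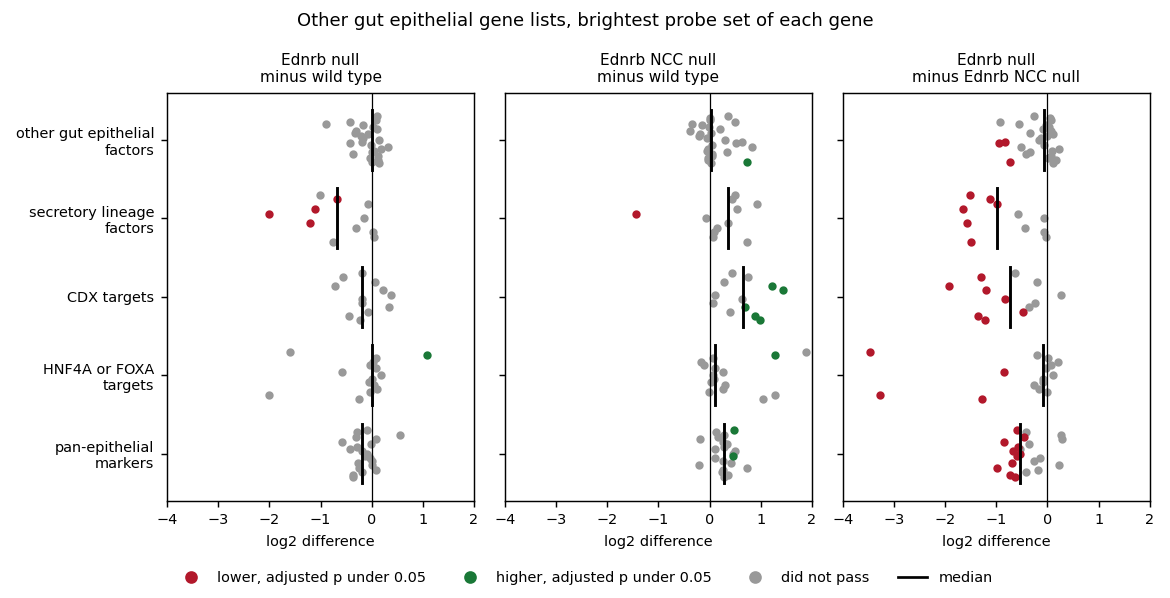
Log2 difference (x axis) of the brightest probe set of each measured gene in 5 gut epithelial lists, for Ednrb null minus wild type, Ednrb NCC null minus wild type and Ednrb null minus Ednrb NCC null. Points are genes, red called lower, green called higher, grey not passed, and the black bar is the list median. The median of secretory lineage factors lies at -0.68, 0.37 and -0.99 in the 3 panels, and that of CDX targets at -0.19, 0.66 and -0.73.

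The genes whose profile over the 9 arrays was most like that of a called factor were found by the root mean square difference of centred log2 values, among 11319 genes with a mean of at least 7. For Cdx1, which varied with a root mean square of 0.80, the closest were Apobec2 (0.162), Foxa3 (0.184) and Fam83e (0.231). For Foxa3, which varied by 0.64, they were Apobec2 (0.111), Cps1 (0.170) and Cftr (0.175). Cdx1 and Foxa3 were thus close to each other on this measure, and both were closest to the same gene. For Foxa1 the list was Prkar2a (0.133), Mfsd13a (0.140) and Galnt4 (0.150), and for Hnf4a it was Unc5cl (0.0960), Ndrg2 (0.0984) and Aspg (0.0991). Foxa1 and Hnf4a themselves varied by only 0.34 and 0.32, so their smaller distances do not mean closer matches.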

How the data were processed

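RNA of dissected terminal colon was hybridised to 9 arrays, from 150 ng of total RNA by cRNA amplification, per the labels' protocols. Each deposited value was the intensity of a probe set on an array; per the submitters' processing notes the authors used RMA, whose version, software and chip definition were not given in the sources used here. This method subtracts background, equalises the distributions of the arrays and summarises the probes of each set, which shrinks differences of dim probe sets. The deposited intensities were linear, from 5.69 to 61637, with array medians of 111 to 115, and were turned into log2 here without a pseudocount. There is no depth of counting on an array, so the number of arrays limits the precision.

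Of 45101 probe sets, 64 were controls and left out. The platform annotation named 1 gene for 34945, several for 932, and did not list 9160. All 9 members matched a RefSeq gene by Entrez ID. A mean per group was fitted to the log2 values of all 9 arrays with limma 3.58.1 in R 4.3.3 (lmFit, eBayes). Tests were 2-sided, and the procedure was tested on simulated data. The members and gene lists were chosen with earlier results of these data known, and so support nothing beyond description. Named genes were all members; of each list, up to 4 called genes with the smallest p, or up to 2 where none was called; and the 3 nearest profiles of each called member. Genes outside this rule, such as Epcam, Pdx1 or dim list members, were chosen after their values were seen. Alternatives were another scaling (centred medians, quantile normalization), leaving out dim probe sets, other moderation, array weights, fitting 2 groups only, other probe set choices, a threshold of 0.10, the Actb ratio or pan-epithelial mean as a covariate, and leaving out each array. Counts of the lists under these settings were added after seeing the data.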

Additional observations from a re-analysis of the deposited data

Results flagged for a closer look

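For 4 factors the change from wild type differed between the mutants when the difference itself was tested with limma over all probe sets, as the contrast of Ednrb null minus Ednrb NCC null. It was -1.81 for Cdx1 and -1.47 for Foxa3, each with the Ednrb null value below and the Ednrb NCC null value above wild type on average. It was -0.68 for Foxa1, and -0.60 for Hnf4a, for which most of the gap came from the Ednrb NCC null side (0.53 against -0.06 from wild type). All are log2 differences. Over 9 fits with 1 array left out, the call was lost in 5 for Foxa1 and 7 for Hnf4a, and in 0 for Cdx1 and Foxa3. Groups of 3 arrays are too small for a test of single outlying arrays.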

How the results depend on the processing

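Cdx1 and Foxa3 in Ednrb null against wild type kept direction and call under every alternative tried, over a range of -1.42 to -1.03 and -1.16 to -0.91 with 1 array left out. The number of called probe sets was 2 in Ednrb null against wild type and 4 at a threshold of 0.10. In Ednrb NCC null against wild type it was 1, but 3 at 0.10, 2 after centring, without the dimmest 40% or with probe sets averaged per gene, 0 with the pan-epithelial covariate, and 1 to 2 with an array left out. Between Ednrb null and Ednrb NCC null it was 4, but 8 at 0.10 or with array weights, 2 with the Actb covariate, 0 with the pan-epithelial covariate, and 2 to 5 with an array left out. Calls over all 45037 probe sets in that comparison were 1984 in the main fit and 3709 with array weights. They were 283 with the Actb covariate and 52 with the pan-epithelial covariate. Some differences that had not passed changed sign, and not all of them were near 0 in the main fit. There Cdx1 was at 0.59 and Elf3 at 0.30 in Ednrb NCC null against wild type, and Elf3 at -0.47 between the mutants. With the pan-epithelial covariate, Hnf4a (0.0625), Gata6 (0.0213) and Elf3 (0.0408) changed sign in Ednrb null against wild type. In Ednrb NCC null against wild type, Cdx1 (-0.0654), Foxa2 (-0.146), Klf5 (-0.0933) and Elf3 (-0.0665) did so, and between the mutants Elf3 (0.107) did so. With probe sets averaged per gene Hnf4a (0.0628) and Klf5 (0.0459), and with array weights Gata6 (0.0342), did so in Ednrb null against wild type, and with quantile normalization Foxa2 (-0.0101) in Ednrb NCC null against wild type. With an array left out, Foxa2 ranged from -0.149 to 0.128 in Ednrb NCC null against wild type, and Hnf4a from -0.194 to 0.0456 and Gata6 from -0.0865 to 0.0473 in Ednrb null against wild type. The cause was not tested. No paired analysis was possible because the groups share no replicate numbers in the labels.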

Other observations

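Wild type 1C was the lowest of the 3 wild type arrays for 8 of 11 secretory lineage factors, a pattern chosen after its values were seen. The exceptions were Insm1 and Neurod1, lowest in 1B, and Nkx2-2, tied with 1D. The pattern was not particular to that lineage. Wild type 1C was also lowest for 8 of 9 urogenital and squamous, 6 of 8 macrophage and 11 of 21 pan-epithelial markers, but for 4 of 12 gut mesenchyme markers. Wild type 1B was the lowest for 11 of 11 neural crest, 7 of 8 endothelial and 7 of 8 mesothelial markers. Of 2 goblet cell genes from the list of HNF4A or FOXA targets, Agr2 read 7.40 in wild type 1C, against 9.16 and 9.15 in 1B and 1D, and Tff3 read 9.45, against 11.37 and 11.49. Atoh1 read 7.81, against 8.74 and 8.89, and Spdef 6.88, against 7.67 and 7.97. Cdx1 in the same array read 8.55, against 8.40 and 8.97 in 1B and 1D, and Foxa3 read 8.73, against 8.75 and 8.98. The cause was not tested.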
